A study of Mus musculus with 12 samples.

Results

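The mammary tumor of mouse 1 (MT1) held 62 cells that carried 3 or more of 8 markers of hormone-sensing luminal cells, out of 6226 Epcam-positive cells in that tumor and 21157 cells in the whole data set. A cell was counted as a member when it had at least 1 UMI (a counted RNA molecule) of the epithelial gene Epcam and UMIs of at least 3 of the 8 genes Prlr, Ptn, Fgb, Tph1, Pcp4, Cited1, Esr1 and Pgr. The 9 genes of the rule were not tested again. The same rule chose 304 of 729 Epcam-positive cells in the glands of mouse 1 (MG1) and 904 of 2112 in the glands of mouse 2 (MG2), which served as references together with the 6164 other Epcam-positive cells of MT1. In the tumor of mouse 2 (MT2) 0 of 123 Epcam-positive cells passed, which allows a share of up to 2.44%. Both mice were MMTV-Cre; Brca1flox/flox animals on a mixed C57BL/6 and 129/Sv background, so tumor and glands alike came from mice in which Cre, driven by the MMTV promoter, can delete part of Brca1 in mammary epithelium. Each tissue was the fourth mammary glands or the tumor of 1 tumor-bearing mouse, depleted of blood and endothelial lineages before Drop-seq, a droplet method that counts RNA molecules cell by cell. MT1 was run as 5 libraries, MG1 and MG2 as 2 each and MT2 as 3. The libraries of a tissue are repeats from 1 animal, so every p-value below measures the spread between libraries and not between mice.

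The mammary epithelium has an outer basal layer and an inner luminal layer, and the luminal layer holds secretory cells, which make milk, and hormone-sensing cells. Hormone-sensing cells carry the receptors for estrogen (Esr1), progesterone (Pgr) and prolactin (Prlr) and relay these signals to their neighbours through secreted factors such as Wnt4 and the ligand encoded by Tnfsf11. The values below follow 3 neighbouring genes of mouse chromosome 6 that were far higher in the other Epcam-positive MT1 cells than in the gland cells: Met (chromosome 6: 17463800 to 17573980, GRCm38), the receptor of hepatocyte growth factor, Capza2 (17636234 to 17666972), an actin-capping protein, and St7 (17692933 to 17943025). In the other Epcam-positive MT1 cells Capza2 was at 12118, Met at 2662 and St7 at 708 CPM (counts per 1e6 UMIs), and the nearby Cav1 and Cav2 were at 827 and 806 CPM, above St7. The question addressed here was whether the members carried these 3 transcripts as the tumor cells around them did, or as hormone-sensing cells of the glands did. Ptn, a gene of the rule, also lies on chromosome 6, at 36714929 to 36810220.

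The members came from all 5 MT1 libraries, with 2, 8, 19, 19 and 14 cells in replicates 1 to 5. They made up 0.954 ± 0.373% (SD, n = 5) of the Epcam-positive cells of a library, with the lowest share, 0.324%, in replicate 1. Their median depth was 2290 UMIs per cell, close to the 2153 of the other Epcam-positive MT1 cells and the 2679 of the MG2 cells passing the rule, and below the 4762.5 of MG1. Without Epcam, 2 of 1464 MT1 cells had 3 or more of the markers. No member shared its barcode with a cell of another library, while any 2 libraries shared 0 to 7 barcodes. Of the members, 4 lay in the highest 5% of UMIs of their library. Library totals were 1683944 to 6734224 UMIs for MT1, 693333 and 3094456 for MG1 and 4230114 and 4425910 for MG2.

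The 8 markers were not detected alike in tumor and gland. These shares chose the cells, so they describe the members and are not tested. Ptn, encoding a growth factor, was found in 62 of 62 members, and Prlr in 93.5% (exact 95% interval 84.3 to 98.2%), near the 95.1% and 99.6% of the MG1 and MG2 reference cells. Cited1, a transcriptional co-regulator, was found in 71.0% (58.1 to 81.8%) of members against 54.6% and 52.8%. The fibrinogen chain gene Fgb was found in 45.2% of members, the progesterone receptor gene Pgr in 38.7%, Tph1, which starts serotonin synthesis, in 27.4% and Pcp4, a calmodulin regulator, in 27.4%. In the glands Fgb was at 55.3% and 44.8%, Pgr at 58.9% and 42.9%, Tph1 at 33.2% and 54.3% and Pcp4 at 21.1% and 46.6% in MG1 and MG2, so the members were not outside both glands for Fgb and Pcp4 and had the lowest share for Pgr and Tph1. The members' interval for Pgr (26.6 to 51.9%) included the MG2 share, and by pooled level Pgr was at 181 CPM in the members, 240 in MG1 and 165 in MG2. These shares are not matched for depth, which was highest in MG1. Esr1, the estrogen receptor alpha gene, was found in 1 of 62 members, or 1.61% (0.0408 to 8.66%), against 26.0% (21.1 to 31.3%) in MG1 and 23.6% (20.8 to 26.5%) in MG2. The members' share lay beside the 1.44% of the other Epcam-positive MT1 cells, of which 89 had an Esr1 UMI. Drop-seq counts the 3' end of a transcript, so Esr1 counts depend on how that end is annotated, which was the same for all groups and was not tested. Among the other Epcam-positive MT1 cells Prlr reached 9.52% and Ptn 2.64%, and the remaining 6 markers 0.0324 to 1.44%.

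**Figure D1:**
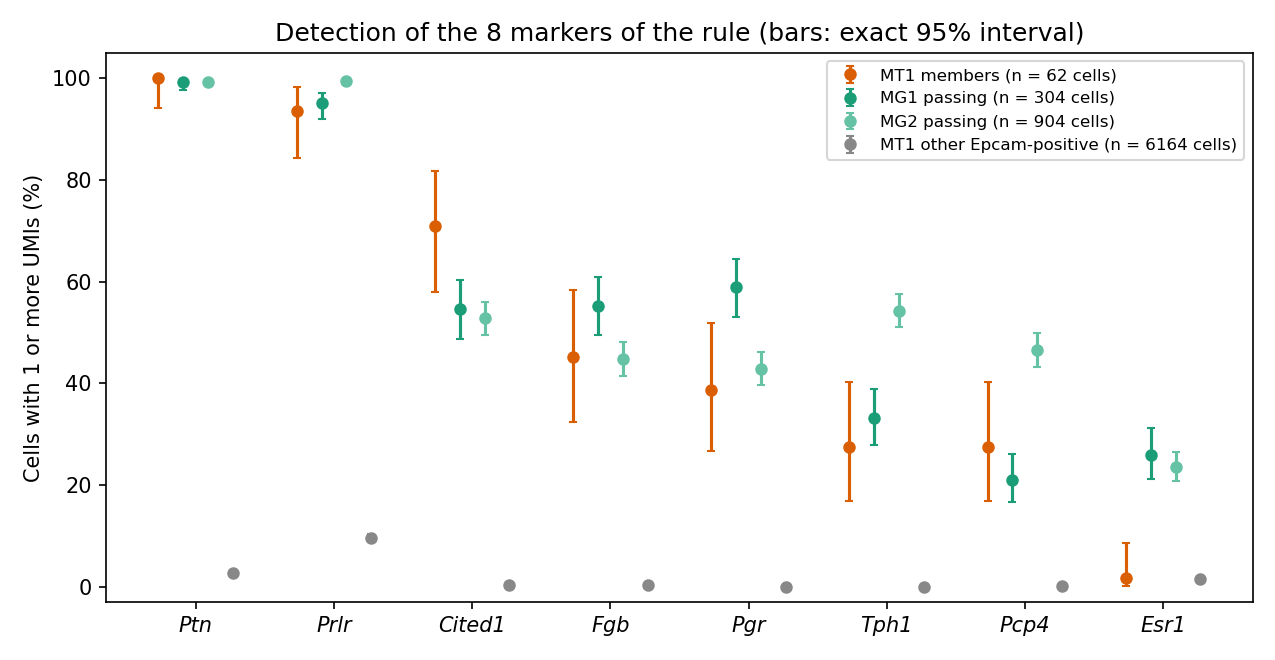
Share of cells with 1 or more UMIs (percent, vertical axis) of each marker of the rule (horizontal axis) in the members, in the gland cells passing the same rule and in the other Epcam-positive MT1 cells; points are shares over all cells of the group and bars exact 95% intervals, which cover counting error only. The members sit with the gland cells for Ptn and Prlr and with the other MT1 cells for Esr1 (1.61% against 26.0% and 23.6% in the glands).

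By number of markers, 19 members had 3, 24 had 4, 16 had 5 and 3 had 6, and none had 7 or 8. Just outside the rule stood 48 Epcam-positive MT1 cells with 2 markers. Their median of Capza2, Met and St7 together was 124 UMIs per 10000, beside 29.5 for the members with exactly 3 markers, and 10 of the 48 fell in the cluster that held most members, against 13 of the 19.

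When all 21157 cells were clustered without the genes of the rule and without 11 genes around Met, 47 of the 62 members (75.8%, exact 95% interval 63.3 to 85.8%) fell in 1 cluster of gland hormone-sensing-like cells. That cluster held 1173 gland cells, 58 MT1 cells and 0 MT2 cells, and 12 of 16 hormone-sensing markers outside the rule marked it. Of the gland cells passing the rule, 246 of 304 in MG1 and 838 of 904 in MG2 fell in it. In MG1 replicate 2 it was 24 of 43. The 11 MT1 cells in it that were not members all had Epcam, and 10 of them had 2 markers. The remaining 15 members were spread over MT1 clusters 3, 4, 5 and 8 (5, 5, 1 and 2 cells) and the gland secretory cluster (2 cells). With a threshold of 2 markers the share of members in the cluster was lower, 57 of 110 (51.8%). At a finer resolution the cluster divided by gland, and 44 members (71.0%) went with the part that held 77.6% of MG1 and 1.11% of MG2 passing cells, while 3 (4.84%) went with the part that held 92.1% of MG2 and 3.29% of MG1 passing cells. The members thus grouped in this clustering mostly with cells from the gland of their own mouse, while of 79 genes called between the 2 glands they were on the MG1 side for 33 and on the MG2 side for 46. Mouse and library run cannot be told apart in this.

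Capza2, Met and St7 in the members lay between the tumor cells and the gland cells. The members had a median of 25.9 UMIs of the 3 genes per 10000 (lower quartile 10.2, upper quartile 80.5, highest 212), the other Epcam-positive MT1 cells 141, and the gland cells passing the rule 2.03 in MG1 and 1.62 in MG2. The members were far from uniform. The 47 in the hormone-sensing-like cluster had a median of 20.5, and the 15 outside it 82.3. A level under that of 95% of the other Epcam-positive MT1 cells (58.9 per 10000) was found in 37 of the 47 and in 4 of the 15. Of all 62 members, 5 had no UMI of the 3 genes. Of the MG1 cells passing the rule, 301 of 304 lay under 58.9, and of the MG2 cells 904 of 904.

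**Figure D2:**
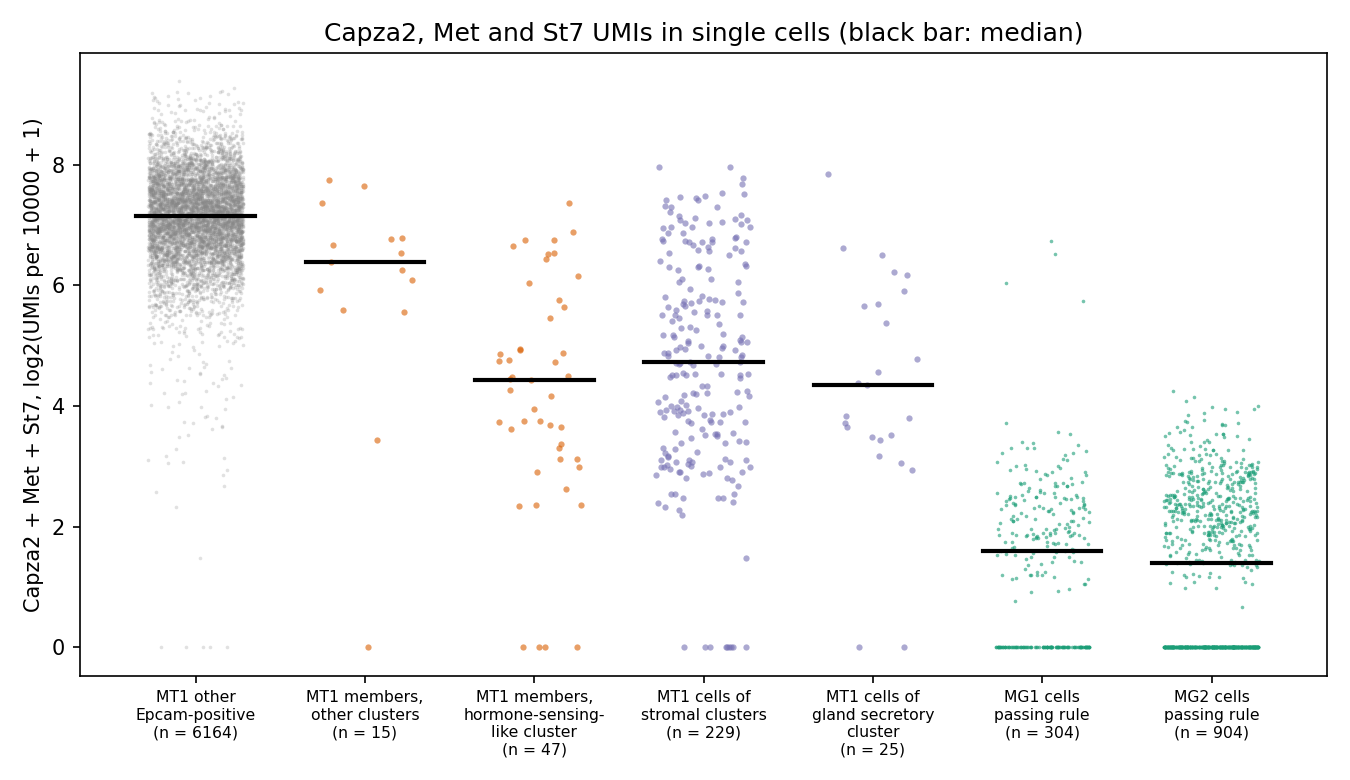
Capza2, Met and St7 together in single cells, as log2(UMIs per 10000 + 1) on the vertical axis; each point is 1 cell, black bars are medians and the number of cells is under each group. Members of the hormone-sensing-like cluster (median 20.5 per 10000) overlap the MT1 cells of stromal clusters (25.4, of which 45.0% had an Epcam UMI), above the gland cells (2.03 and 1.62) and below most other Epcam-positive MT1 cells (141).

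Cells of MT1 in stromal clusters were measured beside the members. The 229 MT1 cells in the 4 clusters led by fibroblast, endothelial or immune markers had a median of 25.4 UMIs of the 3 genes per 10000 (quartiles 10.4 and 68.1), while stromal cells of the glands had 1.84 in MG1 and 0 in MG2. Of these 229 cells 45.0% had an Epcam UMI and so were also among the other Epcam-positive MT1 cells. The median was 57.7 in those with Epcam and 13.9 in the 126 without it (quartiles 7.23 and 27.6). The 25 MT1 cells in the gland secretory cluster had 19.5, against 3.33 in the 1147 gland cells of that cluster. Pooled by library, replicates 1 to 5 gave 85.9, 13.6, 41.3, 64.5 and 67.9 per 10000 in the members, and 70.2, 37.3, 51.9, 51.4 and 62.0 in the stromal cells. The 2 series overlapped, and both were lowest in replicate 2. The mean over libraries was 54.6 ± 27.9 in the members and 54.6 ± 12.4 in the stromal cells (n = 5 libraries each), a difference of 0.0669 that ranged from -23.8 to 15.7 by library (exact sign-flip test, two-sided, p = 1.0). With a threshold of 2 markers in place of 3, the members were 34.6 above the stromal cells and their median was 70.8. In the other Epcam-positive cells it was 159 ± 11.5, and the members were lower in 5 of 5 libraries, at a mean ratio of 0.291, which gave p = 0.0625, the smallest that 5 libraries allow in this exact test. The nearness to the stromal cells depended on those with Epcam. In the stromal cells without an Epcam UMI the mean was 28.9 ± 12.5, and the members were higher in all but 1 of 5 libraries, by 25.8 (range -5.57 to 43.6, exact sign-flip p = 0.125). In the stromal cells with Epcam it was 80.3 ± 17.1, and the members were lower in 5 of 5 libraries, with a mean difference of -25.7 (exact sign-flip p = 0.0625). This split was made after the data were seen. For the members of the hormone-sensing-like cluster alone the mean was 41.1 ± 28.5, lower than the stromal cells in 3 of 5 libraries with a mean difference of -13.5 (exact sign-flip p = 0.25). That difference was -20.8 without replicate 1, which held 2 members, and -8.05 without replicate 5 (exact sign-flip p = 0.25 and 0.5). The members of the cluster were 12.2 above the stromal cells without Epcam (exact sign-flip p = 0.3125) and differed by -39.2 from those with Epcam, lower in 5 of 5 libraries (exact sign-flip p = 0.0625), and the ratio to the other Epcam-positive cells was 0.213. Capza2 gave 77.6% of the UMIs of the 3 genes in the members, 78.2% in the other Epcam-positive cells and 76.7% in the stromal cells, against 73.0% and 72.0% in the glands. St7 gave 3.51% in the members, 4.57% in the other Epcam-positive cells and 4.66% in the stromal cells, but 1.55% (6 of 386 UMIs) in the members of the hormone-sensing-like cluster and 5.13% in those outside it. The make-up was described and not tested. The part of free RNA taken up in the droplets in these values was not tested.

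After every cell was thinned to 1000 UMIs, which all cells of these groups reached, 85.8 ± 9.73% (n = 5 libraries) of the members had a UMI of Capza2, Met or St7, against 25.3 ± 6.45% (n = 4 libraries) of the gland cells passing the rule. The difference of 60.6 percentage points had p = 0.00794 in a two-sided exact permutation test, the smallest those 9 libraries can give. The share was 99.7 ± 0.145% in the other Epcam-positive MT1 cells, 13.9 points higher (exact sign-flip p = 0.125). Over all cells the thinned share was 83.9% (exact interval 72.3 to 92.0%) in the members and 83.4% (77.9 to 88.0%) in the MT1 stromal cells, at median depths of 2290 and 1902 UMIs. Unthinned, the shares were 91.9% and 96.1%, against 61.2% and 52.9% of the passing cells of MG1 and MG2. In stromal cells of MG1 and MG2 the thinned share was 19.3% and 21.8%. The shares of members and MT1 stromal cells were both lower than the 99.8% of the other Epcam-positive MT1 cells over all cells (exact interval 99.6 to 99.9%).

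**Figure D3:**
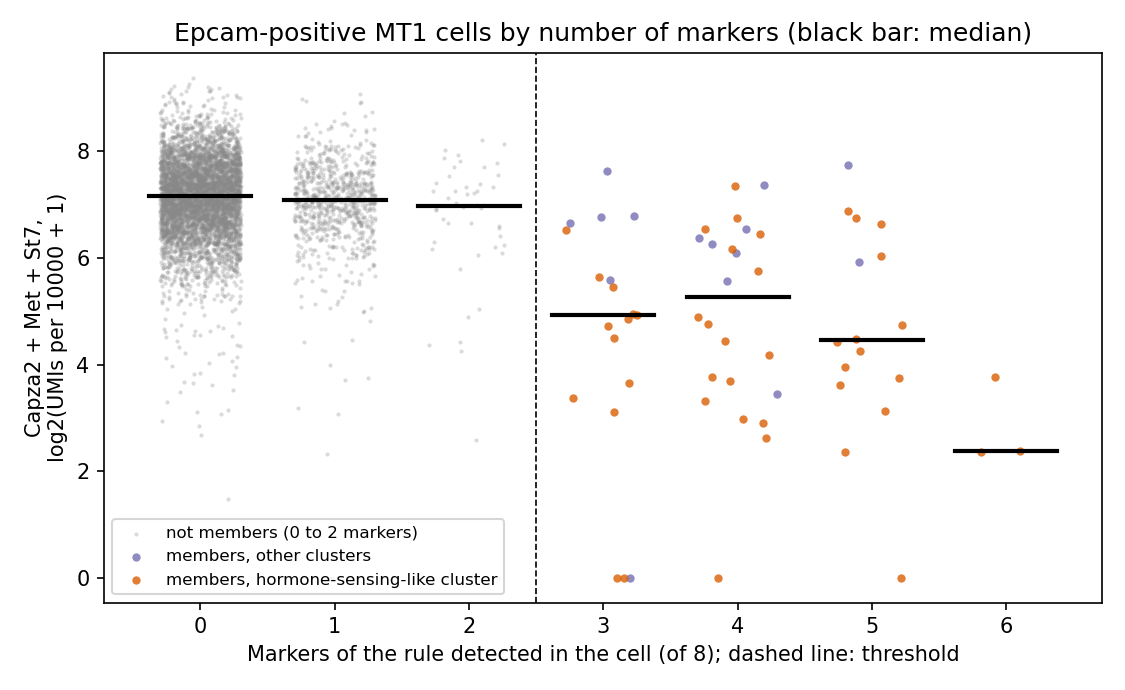
Capza2, Met and St7 together, as log2(UMIs per 10000 + 1), in Epcam-positive MT1 cells by the number of rule markers detected; each point is 1 cell, black bars are medians and the dashed line is the threshold of the rule. The median is 124 per 10000 at 2 markers and 29.5 at 3, and members outside the hormone-sensing-like cluster (purple) are mostly in the range of the non-members.

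Against the other Epcam-positive cells of the same tumor, the members were compared for genes of the chromosome 6 region, for hormone-sensing markers outside the rule and over all genes. UMI counts were summed per library and cell group and compared within the 4 libraries that had at least 3 members (edgeR quasi-likelihood test with library as a block, adjusted p under 0.05). Of 8367 genes tested, 604 (7.22%) were called, 196 higher (2.34%) and 408 lower (4.88%) in the members. The median log2 fold change over all tested genes was -0.39, so each difference below is to be read against that value. The split depended on scaling: with size factors of the RLE type it was 244 higher and 277 lower (median -0.24), and with DESeq2 209 higher and 95 lower (median -0.28). Leaving out replicate 3, 4 or 5 left 319, 385 and 374 calls.

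Capza2, Met and St7 were lower in the members. Capza2 was at 893, 2988, 4996 and 4629 CPM (counts scaled to 1e6 UMIs after TMM) in the members of replicates 2 to 5 and at 14627, 12690, 13471 and 13550 in the other cells. The groups did not overlap, the difference was -2.14 on the log2 scale (SE 0.26, adjusted p = 6.85e-14), and replicate 2 had the lowest member value. Met was at 77.6, 938, 1080 and 1171 CPM in the members against 2786 to 3159 in the other cells (log2 fold change -1.87, adjusted p = 2.92e-11). St7 was at 38.8, 156, 220 and 213 CPM against 714 to 893 (log2 fold change -2.25, adjusted p = 4.76e-11). Cav2, a caveolin gene upstream of Met, was lower as well (296 ± 142 against 908 ± 171 CPM, log2 fold change -1.56, adjusted p = 1.11e-06). Cav1 was called lower (log2 fold change -1.05, adjusted p = 0.00267) although the groups overlapped, 65.4% of its UMIs in the members came from 1 cell, and the call was lost without replicate 2 or 4, with an adjusted p of up to 0.206. Tes, the furthest upstream of the 6 genes tested, was at 263 ± 90.9 CPM in the members and 194 ± 21.6 in the other cells and did not pass (log2 fold change 0.40, adjusted p = 0.471). So 5 of the 6 genes of the region that could be tested were lower, beside 4.88% of all genes, with a median of -1.72 beside -0.39 over all genes. With the members of the hormone-sensing-like cluster alone, Capza2 differed by -2.89, Met by -2.50 and St7 by -4.16, and Cav1 and Cav2 by -3.42 and -3.43 (adjusted p = 2.07e-20 and 6.06e-20).

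Of 16 genes that mark hormone-sensing cells but were not in the rule, 7 rose and 0 fell, beside 2.34% of all genes called higher, and 7 were not tested. Several of the 9 tested had few UMIs in the other cells and could pass the filter on low counts only through the members, so their number, their median of 4.52 and the lack of overlap in such genes are descriptions. Cxcl15, encoding a chemokine, was at 1398, 295, 403 and 479 CPM in the members and at 0 to 1.20 in the other cells (log2 fold change 9.10). Fxyd2, a regulator of the sodium pump, was at 582, 226, 659 and 346 CPM against 4.73 to 11.1 (log2 fold change 5.48). For both genes the 4 member values lay above all 4 values of the other cells. Gpx3, an extracellular glutathione peroxidase, was at 314 ± 120 CPM against 9.11 ± 2.37 (log2 fold change 5.10). The secreted glycoprotein gene Stc2 differed by 4.52, the surface antigen gene Ly6a by 4.13 and the transcription factor gene Tbx3 by 3.58. Calca, the calcitonin gene, differed by 9.53, with 1126 CPM in replicate 2 and 86.9 to 165 CPM in the other 3.

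Genes named by size were required not to overlap between the groups, as 2003 of the 8367 genes (23.9%) did not. The largest rises among abundant genes also included Cdo1, a cysteine dioxygenase, at 439 ± 99.6 against 3.09 ± 1.85 CPM (log2 fold change 7.16), and Itih2, an inter-alpha-trypsin inhibitor chain, at 452 ± 454 against 2.28 ± 1.44 CPM (7.78). Krt15, a keratin of epithelial progenitors in several tissues, was at 4038, 695, 549 and 665 CPM against 8.39 to 18.9 (6.50). Krt4, a keratin of stratified epithelia, was at 272, 313, 220 and 53.2 CPM against 0.473 to 1.61 (7.59), and Crym, which binds thyroid hormone, at 388, 261, 201 and 26.6 against 0.473 to 2.01 (7.10). Also named by the same rule of size were Ctse, Tmem56 and Epgn, with log2 fold changes of 8.32, 7.58 and 6.70. Each of these 8 genes kept its call under each alternative in which it was tested. Krt4, Crym and others of these had few UMIs in the other cells. Such genes could pass the filter on low counts only through the members, so their lack of overlap and kept calls are descriptions. Ctsr, a cathepsin gene with 0 UMIs in the other cells of these 4 libraries, was at least 6974-fold higher against a floor of 3 counts, but 207 of its 227 UMIs came from 1 member of replicate 2, and only 6 members had any.

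Among the genes lower in the members, besides St7 and Capza2, was Sparc, a matrix-associated secreted protein, at 38.8, 122, 54.9 and 26.6 CPM against 431 ± 59.4 (log2 fold change -2.67, adjusted p = 4.73e-10). Igfbp7, a secreted growth factor-binding protein, was at 77.6, 243, 110 and 79.8 CPM against 608 to 636 (-2.20). Fabp5, a fatty acid carrier, was at 0, 295, 641 and 160 CPM against 853 to 1307 (-1.99), and the Wnt antagonist gene Sfrp1 at 77.2 ± 58.7 against 332 ± 26.8 (-1.99). The same rule of size named the chemokine gene Cxcl10 (-3.26), the ubiquitin ligase gene Fbxo32 (-2.86), the adaptor gene Sh3kbp1 (-2.70), Tsc22d3 (-2.27), Rin2 (-2.01) and BC006965 (-2.40). Of these 10 genes, Sfrp1 and Tsc22d3 were not called with a threshold of 2 markers.

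Markers of other cell types were checked in the same comparison, in which 2.34% of all genes were called higher and 4.88% lower. Of 8 pan-epithelial genes, all tested, 3 rose: Krt19 (3724 ± 918 against 482 ± 72.4 CPM, log2 fold change 2.93), Krt7 (0.89) and Cldn4 (1.04), of which Krt7 lost the call without replicate 4 (adjusted p = 0.0524) and Cldn4 without replicate 3 (0.230). Of 16 secretory genes 13 were tested and 6 were called, beside 7.22% of all genes. The casein gene Csn1s1 rose (log2 fold change 2.24), as did Csn3 (0.83) and Ltf (1.81), while Wfdc18 (-1.80), Cd14 (-1.10) and Trf (-1.09) fell, and the median was -0.51. For Csn3, the call was lost without any 1 of 3 libraries (adjusted p up to 0.253), and Ltf, with 25 of its 33 UMIs in 1 member, went to -0.36 without replicate 4. Of 11 basal genes 5 were tested and Krt14 fell (-2.32, lost without replicate 3 at adjusted p = 0.106). In the members Krt5, Acta2, Myh11, Mylk, Cnn1, Oxtr and Tagln were at 0 UMIs. Of 8 fibroblast genes 5 were tested: Dcn, a matrix proteoglycan, rose, with 3766, 347, 3752 and 1117 CPM in the members against 131 to 213 (log2 fold change 3.41, adjusted p = 2.61e-38), and Col1a2 (-3.19) and Col3a1, at 0 UMIs and at least 4.04-fold lower, fell. Dcn was also present in 62.2% of MG1 and 55.3% of MG2 passing cells, beside 40.3% of members and 8.83% of the other MT1 cells, while Lum, Pdgfra and Dpt were at 0 in the members. The 7 immune markers in the table were at 0 in all 62 members, and 5 of 6 endothelial markers were at 0, with a summed level of 12.1 CPM.

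Genes of cell division did not pass in either direction in the tumor. Of 18 proliferation genes, all tested, 0 were called with edgeR, beside 7.22% of all genes, and the median was -0.87. At an unadjusted p under 0.05 there were 6 of the 18, beside 19.4% of all genes, and DESeq2 gave 0 on either measure. Their summed level was 865 CPM in the members, 473 in those of the hormone-sensing-like cluster and 1794 in those outside it, beside 1212 in the other Epcam-positive cells and 260 and 237 in the MG1 and MG2 passing cells. For the lists that follow, 4.88% of all genes were called lower and 2.34% higher. Of 10 mesenchymal genes 6 were tested and Vim (-1.51), Fn1 (-2.79) and Sparc fell. Fn1 rested on 2 members with a UMI, lost its call without 2 of the libraries in turn (adjusted p up to 0.144) and was at 0.17 with a threshold of 2 markers. For Vim, 54 of its 62 UMIs in the members came from 1 cell outside the hormone-sensing-like cluster. Of 12 genes of interferon response and antigen presentation, all tested, Ifit1 (-2.22), Cd74 (-2.80) and B2m (-0.81) fell, with a median of -1.15, and each of these 3 calls was lost without at least 2 single libraries (adjusted p up to 0.191). B2m, the light chain of MHC class I, was called higher than in MG1 (1.23, adjusted p = 0.0487), a call lost without any 1 of 6 libraries (up to 0.142). Of 8 immediate early genes Egr1 fell (-0.80, adjusted p = 0.0465, up to 0.348 without a library). It was also called lower than in MG1 (-1.91, adjusted p = 0.0258), a call lost in 6 of 16 alternatives. In prolactin signalling 7 of 8 genes were tested and Stat5b, a transcription factor that acts below the prolactin receptor, rose (69.5 ± 44.9 against 8.35 ± 1.55 CPM, log2 fold change 2.98, adjusted p = 0.000363). Stat5b had 12 UMIs in 9 members, and without replicate 5 its adjusted p was 0.0948.

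Next, the members were set against gland cells chosen by the same rule, in 1 fit of 4 MT1, 2 MG1 and 2 MG2 library sums. Against MG1, the gland of the same mouse, 481 of 5178 genes (9.29%) were called, 119 higher (2.3%) and 362 lower (6.99%) in the members. Against MG2, 196 (3.79%) were called, 79 higher (1.53%) and 117 lower (2.26%). Between MG1 and MG2 themselves, 79 (1.53%) were called, 60 higher (1.16%) and 19 lower (0.367%) in MG1. The median over all tested genes was -0.15, -0.13 and 0.00. Both contrasts share the members' sums and are given side by side. The MG2 contrast depended on its pair of libraries: without replicate 1 or 2 of MG2, 2 and 4 genes were called, out of 1971 and 1965 then tested, with the lone library assumed to vary like the others. The calls against MG1 numbered 244, 182 and 210 without MT1 replicate 3, 4 or 5 and 207 and 211 without MG2 replicate 1 or 2, when fewer genes were tested (1971 and 1965).

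In this comparison the chromosome 6 genes were higher in the members. Capza2 was at 917, 2940, 5082 and 4753 CPM in the members, at 436 and 178 in MG1 and at 199 and 222 in MG2. That was a log2 fold change of 3.47 (SE 0.59, adjusted p = 0.00548) against MG1 and of 4.04 (SE 0.61, adjusted p = 0.00342) against MG2. Met differed by 2.95 and 3.66 (adjusted p = 0.00858 and 0.00387) and St7 by 2.97 and 3.61 (0.00548 and 0.00165). For Met the groups overlapped, as replicate 2 of MT1 had 79.7 CPM and the MG1 libraries 128 and 90.5. All 3 lost the call against MG2 without either MG2 library (adjusted p up to 0.250), and St7 lost it against MG1 without MG2 replicate 1 (0.0514). Cav2 (2.22 and 2.27) and Cav1 (3.51 and 4.37) were called too, but in cells of the hormone-sensing-like cluster alone neither was, while Capza2 (3.38 and 3.42) and Met (3.46 and 3.34) were. St7 had too few UMIs to be tested there, as 24 of its 30 UMIs in the members came from the 15 outside that cluster. Within it, 4 of 47 members (8.51%, exact interval 2.37 to 20.4%) had a St7 UMI. The share was 6.91% of the MG1 and 5.37% of the MG2 passing cells of that cluster. These shares are not matched for depth, with medians of 2150 UMIs in these members, 4587 in MG1 and 2620 in MG2. Pooled by library, St7 was at 10.9 and 24.0 CPM in these MG1 cells and 17.2 and 12.8 in MG2. The members of the cluster were at 0 in replicate 1. In replicates 2 to 5 they were above each gland value, narrowly in replicate 3 and at most 138 CPM. Their level rests on 6 UMIs, and the difference was not tested. Cav1 was lost against MG1 when 1 of 4 libraries was left out (adjusted p up to 0.0971), and Cav1 and Cav2 against MG2 in 3 cases each (up to 0.250 and 0.225). None of the 6 tested genes of the region, Tes included, differed between MG1 and MG2. The members therefore stood 11.1-fold above MG1 and 4.41-fold below the other tumor cells for Capza2, each in its own fit.

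The hormone-sensing genes outside the rule were called between the members and the gland cells at counts near the background. Against MG1, 12 of 16 were tested, 1 rose and 1 fell, beside 9.29% of all genes called, with a median of -1.04. Against MG2 12 were tested, 1 rose and 0 fell, beside 3.79% of all genes, with a median of -0.20. Gata3, a luminal transcription factor, was at 39.9, 102.6, 74.5 and 54.6 CPM in the members and at 259 and 187 in MG1 (log2 fold change -1.61, adjusted p = 0.0217), with no overlap, and lost the call without MT1 replicate 4 or 5 (up to 0.0600). Foxa1, a factor that opens chromatin for the estrogen receptor, was at 39.9, 17.1, 18.6 and 0 CPM in the members and at 99.5 and 57.6 in MG1, a log2 fold change of -2.22 that did not pass (adjusted p = 0.0554). Wnt4, a Wnt ligand made below the progesterone receptor, was found in 4 members and had a log2 fold change of -2.22 that did not pass (adjusted p = 0.0861). Calca was higher than in MG1 (2.79, adjusted p = 0.0399), but 6 of the 8 libraries, left out in turn, ended that call (adjusted p up to 0.163). Fxyd2 was higher than in MG2 (598, 222, 670 and 355 against 31.9 and 30.4 CPM, log2 fold change 3.85, adjusted p = 0.000957), and MG1, at 349 and 187 CPM, was itself higher than MG2 by 3.12. The call against MG2 was lost without either MG2 library (up to 0.0770).

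Several genes were above both glands. Crym was at 398, 256, 205 and 27.3 CPM in the members, at 4.98 and 0 in MG1 and at 11.5 and 26.2 in MG2 (log2 fold changes 5.78 and 3.48, adjusted p = 0.00236 and 0.00608). It was found in 15 of the 47 members of the hormone-sensing-like cluster, 0 of the 15 outside it, 6 of 304 MG1 cells and 42 of 904 MG2 cells. Crym was also 7.10 above the other MT1 cells, so its level in the members was higher than in each of the 3 references. Serpine2, a protease inhibitor, was above MG1 by 4.50 and above MG2 by 2.51, while the other MT1 cells were higher than the members (873 ± 69.6 against 361 ± 270 CPM, log2 fold change -1.38). Lgals1, a galactose-binding lectin, had the same order, above MG1 by 2.01 and MG2 by 3.95 and 3.72-fold under the other MT1 cells. The MG1 call of Lgals1 was lost without MT1 replicate 3 (0.140) and in the hormone-sensing-like cluster alone, and the MG2 calls of Crym, Serpine2 and Lgals1 were lost without either MG2 library (up to 0.307). Stat5b was above MG1 by 2.52 (adjusted p = 0.0328) and MG2 by 2.36 (0.0467), and both calls were lost without some MT1 libraries (up to 0.139 and 0.193). Cox5a, Hist1h2bc and Hn1 were higher than in MG1 by 1.66, 1.56 and 1.85, of which Hn1 had an adjusted p of 0.0529 without MT1 replicate 3. Krt15, Krt4, Krt6a, Klf2, Gadd45g and Aqp5 were called above MG2 (5.23, 3.47, 2.72, 3.14, 1.92 and 2.40) and not above MG1. All 6 lost the call without either MG2 library.

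Of the 13 secretory genes tested, 0 rose, and 2 fell against MG1 (Csn2 and Csn1s2a, list median -0.44) and 3 against MG2 (these and Lalba, list median -1.13), beside 6.99% and 2.26% of all genes called lower. The whole list did not go one way, as its summed level was 10247 CPM in the members, 7755 in MG1 and 14031 in MG2, and within the hormone-sensing-like cluster 7285, 3836 and 8864. The milk protein genes Csn1s1 (-0.44 and 0.07) and Csn3 (0.88 and -0.34) did not pass in either contrast. The casein gene Csn2 was at 0, 17.1, 0 and 27.3 CPM, against 57.2 and 4564 in MG1 and 1079 and 1587 in MG2 (log2 fold changes -7.62 and -6.83, adjusted p = 0.00858 and 0.0252), and Csn1s2a differed by -8.17 and -7.23. Against MG2 both calls were lost without any 1 of 6 libraries (up to 0.250). Lalba, encoding a milk whey protein, differed from MG2 by -4.62 (adjusted p = 0.0407) on 1 UMI in the members, and lost the call without any 1 of the 4 MT1 libraries (up to 0.113). The 2 MG1 libraries differed widely from each other, and without MG1 replicate 2 the adjusted p against MG1 was 0.0859 for Csn2 and 0.119 for Csn1s2a. The contrasts of Csn1s2a were not called within the hormone-sensing-like cluster either, nor was that of Csn2 against MG1. Against MG1 Tnfaip6 and Dpt were at 0 UMIs in the members, at least 16.6-fold and 8.66-fold lower, with 90.4 and 1270 CPM of Tnfaip6 in the 2 MG1 libraries, and Dpt lost its call without MT1 replicate 4 (adjusted p = 0.0540). The basal genes Myh11 (at least 6.89-fold) and Mylk (at least 2.52-fold) were at 0 in the members too, the latter losing its call without any 1 of the 4 MT1 libraries (up to 0.0907), and Cxcl14 fell by 3.80, a call lost without MT1 replicate 4 or 5 (up to 0.0523). The tight junction genes Cldn4 (433 ± 165 against 1501 ± 125 CPM, -1.79) and Cldn7 (89.0 ± 20.7 against 388 ± 91.9, -2.07) were lower than in MG1. Clca3a2, a chloride channel regulator, was at 139 ± 46.0 CPM in the members and at 2493 ± 1.57 in MG2 (-4.12), and Mgp, a matrix protein, at 4.65 ± 9.31 against 308 ± 7.57 (-5.70). Clca3a2 kept its call under every alternative that was run, and Mgp lost it without either MG2 library (up to 0.0848). Against MG2, Chil1 (-3.99) and the pseudogene-like entries Gm11942, Gm43305 and Gm47283 were also lower, the last 3 at 0 UMIs in the members, and their reads may be shared with near-identical copies. Of 8 proliferation genes tested, Top2a and Tyms were higher than in MG1 (2.25 and 2.71) and, with Cenpa (3.98), than in MG2 (2.95 and 2.93), all on 10 to 26 UMIs, beside 2.3% and 1.53% of all genes called higher. Within the hormone-sensing-like cluster Top2a was not called in either contrast, and without single libraries each of these calls was lost (adjusted p up to 0.426).

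The members were also set beside 2 lists of 40 genes that were taken without using the members. The tumor list held genes higher in the other Epcam-positive MT1 cells than in the passing cells of both glands. The gland list held genes with the opposite difference. Both lists thus set gland cells that passed the rule against MT1 cells that did not. The rule that chose the members therefore sets part of their position, and the positions are descriptions. In log2(CPM + 1), each gene's position was set to 0 at the mean of the glands and 1 at the other MT1 cells. For the tumor list, all 62 members together were nearer the gland for 11 genes and nearer the tumor for 29, with a median position of 0.62, and for the gland list they were on the gland side for 31 of 40 genes, at 0.18. Split by cluster, the values are descriptions only, since the clustering did not leave out the genes of these lists and the split thus sets part of these positions: of the 10 leading genes of the hormone-sensing-like cluster 8 are in the gland list. For the tumor list, the 47 members of that cluster were nearer the gland for 26 genes and nearer the tumor for 14, with a median position of 0.45. For the 15 members outside the cluster it was 4 and 36 genes, at 0.86, and for the MT1 stromal cells 3 and 37, at 0.86. For the gland list, the members of the cluster were on the gland side for 33 of 40 genes, at a median position of 0.13. The members outside it were on the gland side for 20 of 40 genes, at 0.46, and the stromal cells for 11, at 0.89. The median gene of the gland list was at 142 CPM in the members of the cluster and 40.8 in those outside it, beside 220 in MG1, 191 in MG2, 22.4 in the gland cells of the secretory cluster and 5.74 in the other MT1 cells. Not all of its genes mark hormone-sensing cells: Csn2, Csn1s2a and Glycam1 were at 5089, 3530 and 855 CPM in the gland secretory cluster against 926, 693 and 256 in the MG1 passing cells. The sum of the list, 11043 CPM in the members of the cluster, 16894 in MG1, 23455 in MG2 and 21776 in the gland secretory cluster, was carried in part by the predicted gene Gm42418, at 542, 4418, 9916 and 10097 CPM. The tumor list summed to 2365 CPM and 7748, beside 748 in MG1, 813 in MG2, 10316 in the other MT1 cells and 14850 in the stromal cells.

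**Figure D4:**
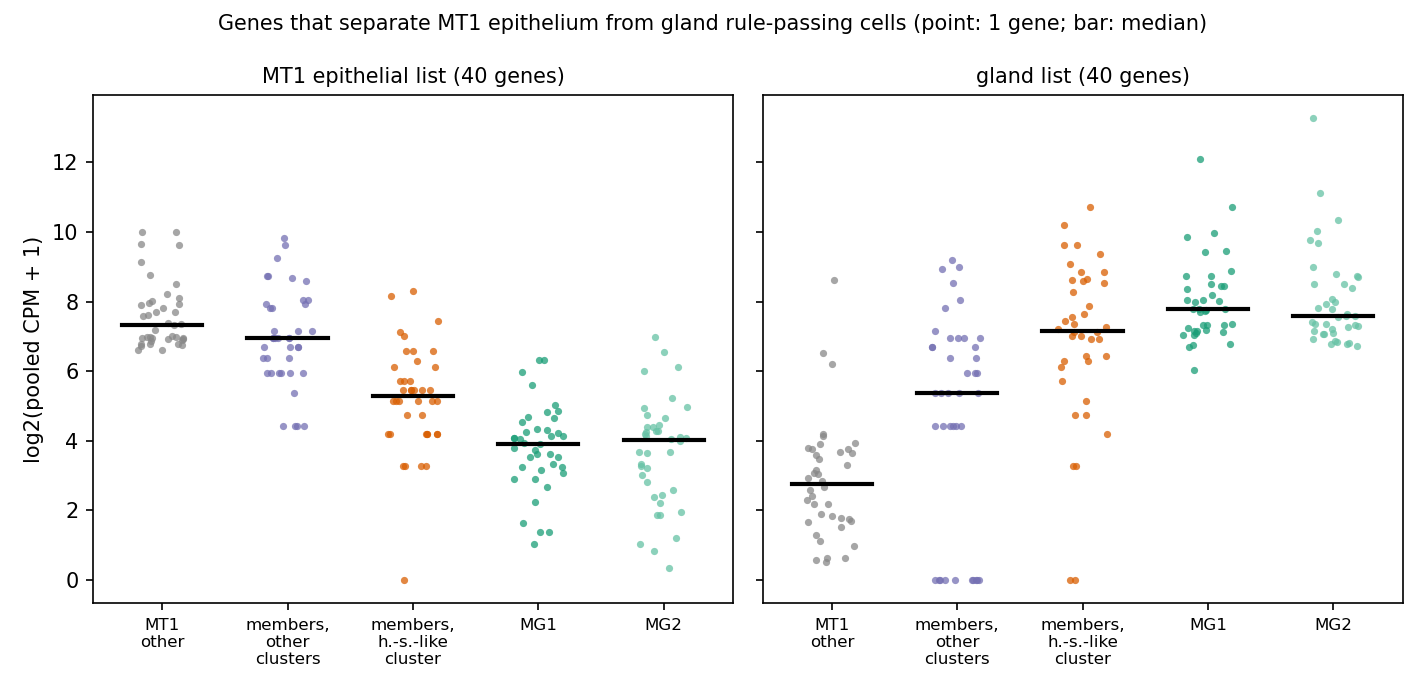
Pooled level of each gene, as log2(CPM + 1), of the 40-gene tumor list (left) and the 40-gene gland list (right) in 5 groups of cells; each point is 1 gene and bars are medians. The clustering did not leave out these genes, and the lists set gland cells that passed the rule against MT1 cells that did not. Members of the hormone-sensing-like cluster lie near the gland cells in the right panel and between tumor and gland in the left panel, and members of other clusters lie near the tumor cells in the left panel.

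The genes that separated the glands of the 2 mice were used to see which gland the members resembled. Of the 19 genes called higher in MG2 than MG1, the members were on the MG1 side for 17, such as Clca3a2 (139 CPM in the members, 215 in MG1 and 2493 in MG2). Of the 60 genes called higher in MG1, the members were on the MG1 side for 16, including Fxyd2, Krt15 and Krt6a, and on the MG2 side for 44. The members were thus mostly at the lower of the 2 gland levels, and over all 79 genes 33 were on the MG1 side. Without either MG2 library, 1 gene was called between the glands, so these lists rest on both. Brca1 transcripts were seen in 3 of 62 members, 0 of 304 MG1 and 10 of 904 MG2 passing cells and 159 of 6164 other MT1 cells. Drop-seq counts the 3' end of a transcript, so these UMIs do not show whether the Brca1 allele was deleted.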

How the data were processed

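Drop-seq libraries of Lin- mammary cells were analysed from 12 samples: 5 of MT1, 2 of MG1, 2 of MG2 and 3 of MT2. The authors deposited raw UMI counts for 21743 genes in 21157 cells, after alignment with STAR to GRCm38.p6 and their own cell filters. No further cell filter was applied here, and no doublet caller was run. Lists and members were chosen with earlier results of these data known, and 1 gene of a list is not reported here.

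For clusters, 3000 variable genes and 30 components were computed with scanpy 1.11.5, without the 9 rule genes and 11 chromosome 6 genes. A graph of shared neighbours (20 neighbours per cell) was built from the components, and leidenalg 0.10.2 was run on it directly at resolution 0.6. A cluster was called hormone-sensing-like from markers outside the rule, and stromal from fibroblast, endothelial or immune markers. Shares carry exact Clopper-Pearson 95% intervals, and a floor for 0 is 3 counts of the total. Both cover counting error only.

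Counts were summed per library and group, and sums of under 3 cells or 5000 UMIs were left out, which removed MT1 replicate 1 (2 members). Member sums held 19160 to 56884 UMIs, which limits precision. Tests used edgeR 4.0.16 (TMM, filterByExpr, quasi-likelihood F-test, Benjamini-Hochberg over all genes tested, 0.05). The rule genes counted in library sizes and were not tested. Members and other MT1 cells were compared with the library as a block. Members, MG1 and MG2 were compared in 1 fit of 8 sums. Genes were named from several sets, and not all genes of these sets are named. One set was the 12 largest changes per direction among called genes with a mean of at least 200 CPM in the higher group. These genes also had no overlap between groups. The others were the chromosome 6 genes and the called and most abundant members of fixed lists. In simulated counts of the comparison within MT1 (8254 genes tested), 3 of 64 genes changed 2-fold, 25 of 64 changed 4-fold and 37 of 63 changed 8-fold were called. Alternatives were DESeq2 1.42.0, RLE scaling, no filter, no block, thinned cells, thresholds of 2 and 4 markers, cells of the hormone-sensing-like cluster alone (added after the data were seen), and leaving out each library.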

Additional observations from a re-analysis of the deposited data

Results flagged for a closer look

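Of 113 groups of 4 or more library values that were checked for a single value far from the rest, 11 had one, and chance gives about 1 in 20. All but 2 were sums of the members, several of which rested on a few cells. Calca was at 1126 CPM in replicate 2, and 26 of its 47 UMIs came from 1 cell. Ctsr was at 8464 CPM in replicate 2, with 207 of 227 UMIs in 1 cell. Ltf was at 494 CPM in replicate 4, with 25 of 33 UMIs in 1 cell, and Vim at 955 CPM in replicate 3, with 54 of 62 UMIs in 1 cell. Ifit1 was at 73.2 CPM in replicate 4 and at 0 in the other 3 libraries, with 4 UMIs in 2 cells. Also far from the rest were Krt15 at 4038 CPM in replicate 2, found in 15 members, and Cxcl15 at 1398 CPM in replicate 2, found in 36. Fn1 was at 34.7 CPM in replicate 3 and at 0 in the other 3 libraries. Sfrp1 was at 165 CPM in replicate 4. In the other Epcam-positive MT1 cells, Trf was at 1189 CPM in replicate 2, against 843 to 866 in replicates 3 to 5. Of the gland cells passing the rule, 34.9% of those in MG1 replicate 2 had a UMI of Capza2, Met or St7 after thinning, above the other 3 gland libraries.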

How the results depend on the processing

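The members' sums held few UMIs, so genes at low levels were mostly beyond reach, and the planned fits limited to the hormone-sensing-like cluster needed 50 members and were not run as such, as 47 were there. Cells of that cluster alone were used instead, a choice made after the data were seen. Within MT1, DESeq2 called 304 genes, thinned cells 255 and a threshold of 2 markers 209, and leaving out 1 library gave 319 to 519. Without the replicate block 726 genes were called, 592 of them among the 604 called with it. Against MG1, thinned cells gave 98 calls, the hormone-sensing-like cluster alone 301, a threshold of 2 markers 1282 and of 4 markers 269, and leaving out 1 library 182 to 594. Against MG2, DESeq2 gave 401, thinned cells 130, no filter 295, a threshold of 2 markers 1040 and of 4 markers 104, and leaving out 1 library 2 to 441. Thinning and leaving out a gland library also lowered the number of genes tested, to 681 and to 1847 to 1971 in the gland comparisons. The cause of the other shifts was not tested. With a threshold of 2 markers there were 110 members, 51.8% of them in the hormone-sensing-like cluster, the median of Capza2, Met and St7 was 70.8 UMIs per 10000, and the members were 34.6 above the MT1 stromal cells. Against stromal cells without an Epcam UMI, chosen after the data were seen, they were 25.8 above, and with the hormone-sensing-like cluster alone and without MT1 replicate 1 the difference was -20.8. Within MT1 the direction turned for Tes in thinned cells (-0.31), for Ltf in the hormone-sensing-like cluster alone (-0.083) and on leaving out 1 library (-0.36 to 2.49), and for Fn1 with a threshold of 2 markers (0.17). For 51 called genes that were followed through the alternatives within MT1, 635 of 699 values kept direction and call, and 61 kept only the direction. Not all genes followed in this way are named above. The figures were 412 of 509 and 97 for the 36 genes against MG1, and 280 of 392 and 112 for the 27 genes against MG2. The difference in the thinned share of cells with a UMI of Capza2, Met or St7 between members and gland cells ran from 33.2 to 64.6 points, the former without thinning. No paired analysis was possible between tumor and glands, because no label pairs their single libraries and the members came from 1 mouse.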
